A study of Homo sapiens with 34 samples.

Results

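The 9 genes described here encode secreted or membrane-bound ligands that drive blood formation: KITLG (stem cell factor), CSF1 and IL34 (both ligands of the CSF1 receptor), ANGPT1 (angiopoietin-1), FLT3LG, THPO (thrombopoietin), IL6, LIF and IL11. They were chosen by name from the 20255 genes of the expression table, which holds all 9, and all 9 passed the filter, which kept genes that reached 10 in 3 or more samples. The cells were of the H1 line, an established human embryonic stem cell line, differentiated in a culture to which BMP4 and VEGF were given at the start and VEGF alone afterwards, with no haematopoietic cytokine added. RNA was sequenced from 34 samples. They were 1 sample of untreated undifferentiated cells, 3 of embryoid bodies (EBs) at day 0 labelled BMP4+hVEGF, 3 each of unsorted cells at days 2 and 4, and 3 of each sorted fraction, CD43- and CD43+, at days 6, 9, 12 and 16, all labelled hVEGF. CD43 is a surface glycoprotein of blood cells. On day 16 the sorting also used CD45, the pan-leukocyte phosphatase, and the CD43-CD45- and CD43+/CD45+ cells are called day 16 CD43- and CD43+ cells below. The labels name no genetic change, and the values describe 1 line in 1 culture system.

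Haematopoietic ligands act on receptors of blood progenitors and of the cells around them. In the embryo and in bone marrow, stem cell factor, thrombopoietin and FLT3 ligand sustain stem and progenitor cells, colony stimulating factor 1 and interleukin 34 sustain macrophages, and angiopoietin-1 signals to endothelial and stem cells through TIE2. Interleukin 6, LIF and interleukin 11 each bind a receptor of their own and share the signalling chain gp130. Stromal and endothelial cells are the usual source of stem cell factor and CSF1, and megakaryocytes and their progenitors are known to make angiopoietin-1.

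The upstream sequences of 3 genes are shown because these genes were among those that differed between the fractions on several days and because a short promoter motif was present in each. The RefSeq promoter table of build GRCh38.p14 held 5 of the 9 genes (FLT3LG, IL11, IL6, KITLG and THPO). CSF1, IL34, LIF and ANGPT1 are not shown. The 250 bases before each start were searched on both strands for the AP-1 motif TGANTCA, an NF-kB motif and the TATA box TATAAA, and matches are in capitals. IL11 is shown in full (chr19:55370464-55370713, minus strand). IL6 is shown up to an exon annotated by GENCODE (chr7:22726950-22727146, plus strand). This stretch lies inside the annotated IL6 locus, which begins at 22725884. For KITLG, whose window lies inside an annotated exon, 30 bases around the match are given (chr12:88580483-88580512, minus strand).
IL11: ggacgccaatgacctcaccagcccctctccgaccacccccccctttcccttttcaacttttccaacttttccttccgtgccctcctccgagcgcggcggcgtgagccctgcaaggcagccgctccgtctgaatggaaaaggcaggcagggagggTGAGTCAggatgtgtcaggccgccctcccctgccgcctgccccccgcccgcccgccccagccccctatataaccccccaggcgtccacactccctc
IL6: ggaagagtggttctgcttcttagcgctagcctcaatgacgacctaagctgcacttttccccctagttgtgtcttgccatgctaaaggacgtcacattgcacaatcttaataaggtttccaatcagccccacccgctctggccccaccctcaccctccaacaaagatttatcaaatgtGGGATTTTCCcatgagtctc
KITLG: gggcgggaactgTATAAAagcgccggcggc
The AP-1 match of IL11 begins 96 bases before its start, the NF-kB match of IL6 begins 73 bases before, and the TATA box of KITLG begins 29 bases before. No match of one motif overlapped a match of another. Among 35116 promoters in the table, 6.57% held the AP-1 motif, 5.21% the NF-kB motif and 10.7% the TATA box, and no match was found in the windows of THPO or FLT3LG. These matches describe letters in a window and say nothing of binding.

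The table gives GC-normalized tag counts in whole numbers. Sorted by size they were identical in all 34 samples, with a median of 197 and a sum of 17856940, so that a value stands close to the rank of a gene and the sequencing depth is unknown. The values were not scaled by transcript length and are compared here between samples for a gene, never between genes. Differences are log2 fold changes of value + 1, with their standard errors, from limma fitted to the 33 replicated samples and 19788 genes. A gene was called at a Benjamini-Hochberg adjusted p below 0.05 and a fold change above 4. SPN, which encodes CD43, was higher in CD43+ than in CD43- cells on all days. The CD43- cells carried mesenchymal and endothelial markers. In their samples the 8 mesenchymal markers summed to between 197171 and 325164. In CD43+ cells they summed to between 58788 and 155112 on day 6, 4194 and 21873 on day 9, 21139 and 45864 on day 12 and 7408 and 15871 on day 16. The 5 pan-blood markers summed to between 212 and 1304 in CD43- samples and between 7827 and 31668 in CD43+ samples. In these bulk samples, fewer cells of a type and less RNA per cell cannot be told apart. RNA was sequenced at 2 providers and the labels do not say which sample was sequenced where, so a provider effect was not tested.

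**Figure D1:**
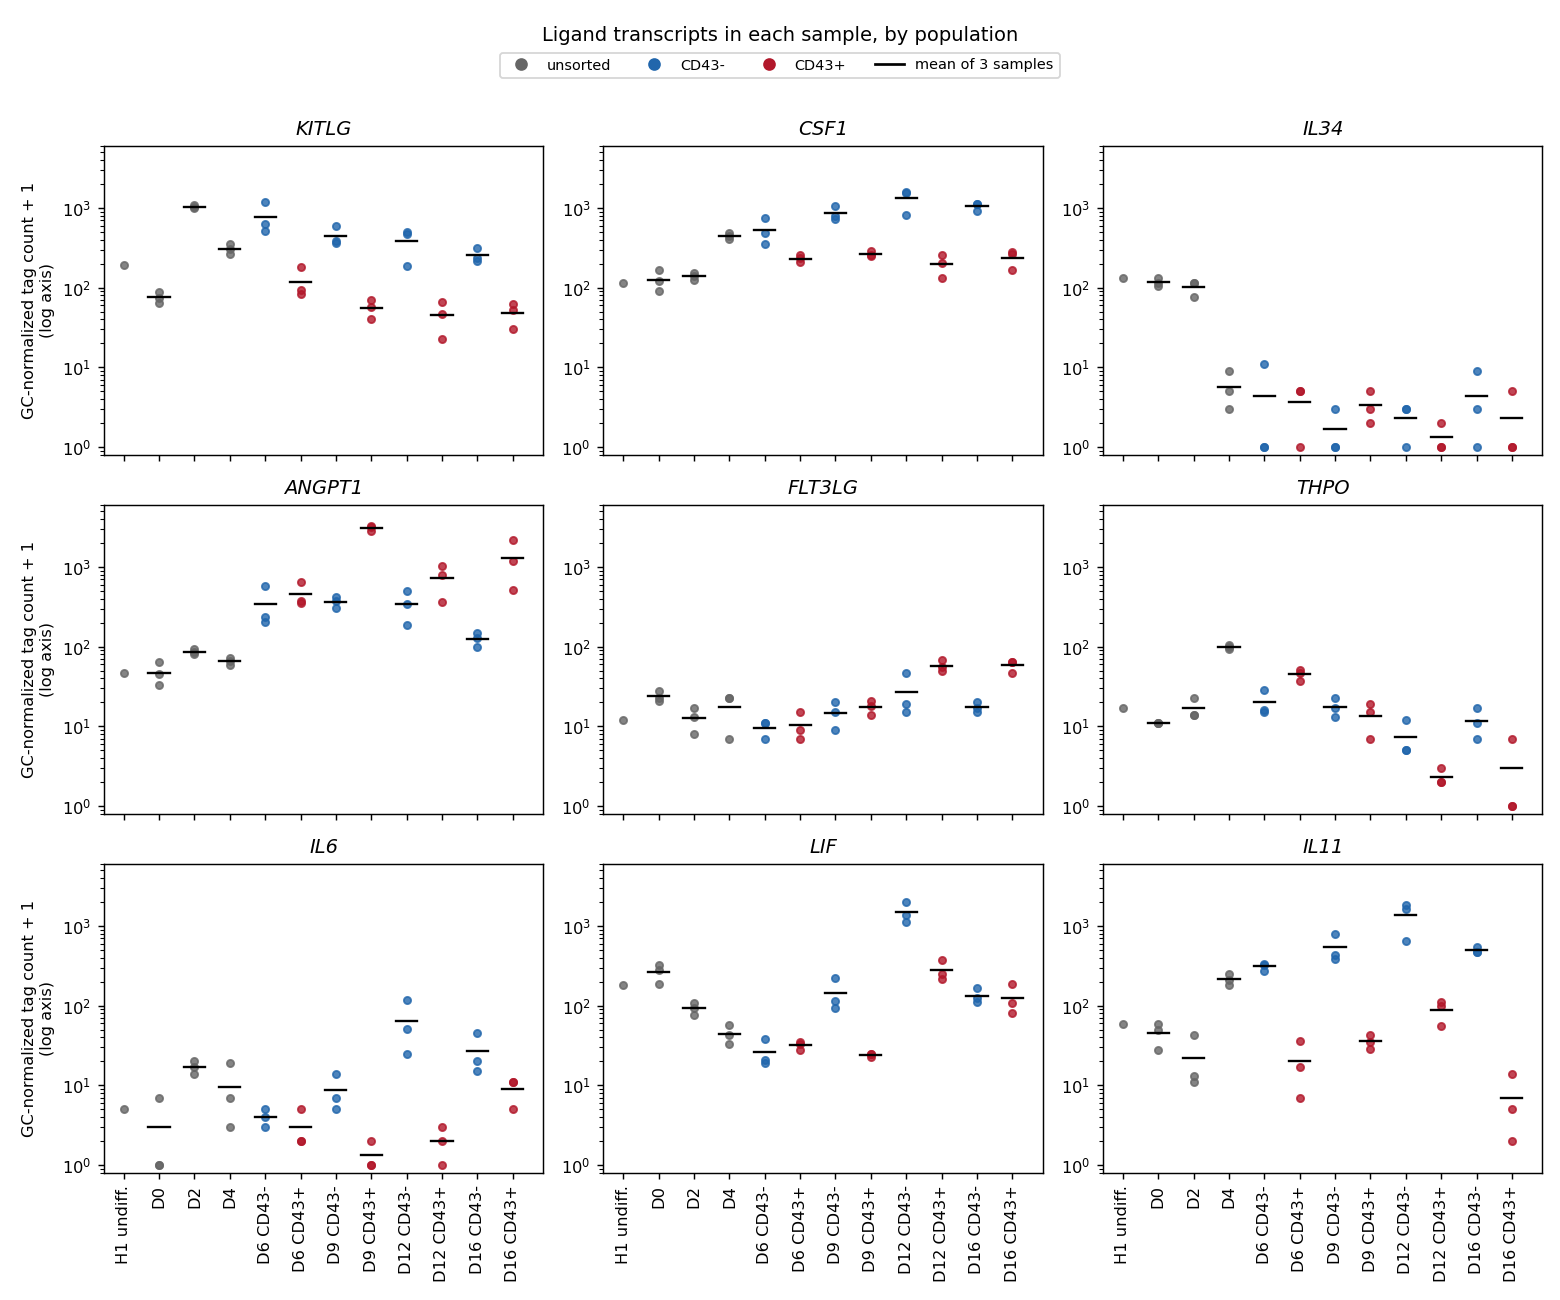
Each point is the GC-normalized tag count + 1 of a ligand in 1 sample (log axis), for undifferentiated H1 cells, unsorted cells at days 0, 2 and 4 (grey), CD43- cells (blue) and CD43+ cells (red), with a black line at the mean of 3 samples. KITLG, CSF1 and IL11 were higher in every CD43- sample than in the CD43+ samples of the same day, ANGPT1 was highest in day 9 CD43+ cells (2848 to 3262), and LIF was highest in day 12 CD43- cells (1134 to 2016).

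Most ligand transcripts that differed between the fractions were higher in the CD43- cells. On day 6, 2 of the 9 ligands were called lower in CD43+ cells (KITLG and IL11) and 0 higher, where 7.85% of all tested genes were called lower and 4.69% higher. CSF1 was lower on that day at an adjusted p below 0.05, short of 4-fold. THPO was higher at an unadjusted limma p under 0.05 only. On day 9, 4 were called lower (KITLG, IL6, LIF and IL11) and 1 higher (ANGPT1), against 12.8% and 8.65% of all genes. CSF1 was again lower at an adjusted p below 0.05, short of 4-fold. On day 12, 5 were called lower (KITLG, CSF1, IL6, LIF and IL11) and 0 higher, against 14.4% and 11.8%. At an adjusted p below 0.05 and short of 4-fold, ANGPT1 and FLT3LG were higher and THPO was lower. On day 16, 4 were called lower (KITLG, CSF1, THPO and IL11) and 1 higher (ANGPT1), against 13.6% and 12.2%. FLT3LG was higher at an adjusted p below 0.05, short of 4-fold, and IL6 was lower at an unadjusted limma p under 0.05 only. The median log2 fold change of the 9 ligands was 0.05, -1.67, -2.44 and -1.49 on days 6, 9, 12 and 16, where the median of all tested genes was 0.14, 0.24, 0.22 and 0.14.

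**Figure D2:**
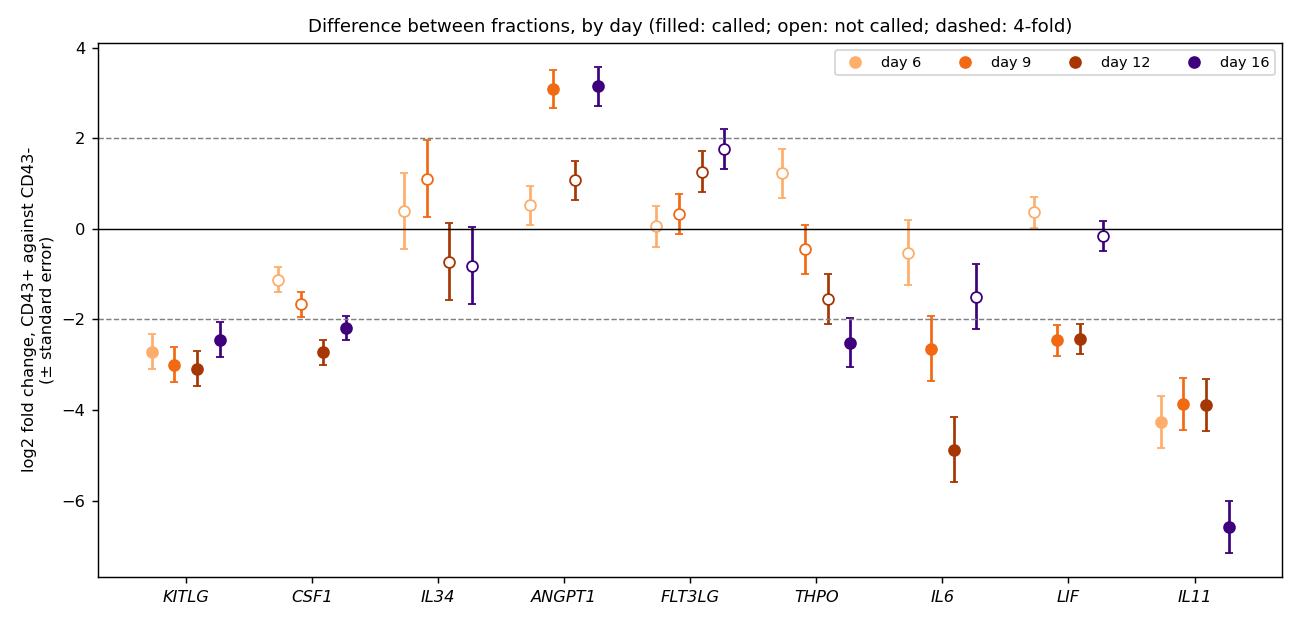
Log2 fold change of CD43+ against CD43- cells (vertical axis, with standard errors as bars) for each ligand on days 6, 9, 12 and 16. Filled points were called, open points were not, and dashed lines mark a 4-fold change. KITLG (-2.45 to -3.09) and IL11 (-3.86 to -6.57) were called lower in CD43+ cells on all 4 days, and ANGPT1 was called higher on days 9 and 16.

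KITLG (ENSG00000049130, chr12:88492793-88580851, minus strand) encodes stem cell factor, the ligand of the receptor tyrosine kinase KIT. Its mean was highest at day 2, before cells were sorted, and after that it was higher in the CD43- fraction. Its values were 74, 88 and 64 in day 0 EBs and 1081, 996 and 1032 in day 2 cells, and 194 in the undifferentiated sample. The day 0 and day 2 samples did not overlap, and the log2 fold change was 3.78 (standard error 0.38, adjusted p = 1.10e-08). At day 4 the values were 307, 348 and 267, below all day 2 samples, with a log2 fold change of -1.76, short of 4-fold (adjusted p = 0.000618).

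After sorting, KITLG stood at 1178, 634 and 518 in day 6 CD43- cells and at 180, 82 and 92 in day 6 CD43+ cells. On day 9 the values were 589, 364 and 390 in CD43- cells and 57, 40 and 69 in CD43+ cells. On day 12 they were 473, 186 and 492 against 65, 46 and 22. The fractions did not overlap on any of these days, and replicate 2 of the day 12 CD43- cells was the lowest CD43- sample of all. On day 16 the values were 310, 218 and 238 in CD43- cells and 29, 62 and 52 in CD43+ cells. The log2 fold changes of CD43+ against CD43- cells were -2.71, -2.99, -3.09 and -2.45 on days 6, 9, 12 and 16 (standard error 0.38, highest adjusted p = 2.78e-06). On the linear scale the mean of the CD43- cells was 6.58, 8.09, 8.65 and 5.36 times that of the CD43+ cells. From day 6 to day 9 KITLG fell within CD43+ cells by less than 4-fold (log2 fold change -1.02, adjusted p = 0.0436). In the order of population means, KITLG ran from 1036 ± 42.7 (SD, n = 3) in day 2 cells down to 44.3 ± 21.5 in day 12 CD43+ cells. Of the 10 neighbouring pairs in that order, 9 overlapped in their samples, and the exception was the step from day 16 CD43- cells (255 ± 48.4) to day 6 CD43+ cells (118 ± 53.9). GENCODE annotates an antisense transcript across the first exon of KITLG, and whether reads were counted by strand is not given in the sources used here.

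The receptor gene KIT had another pattern. Its values were 416, 328 and 146 in day 6 CD43- cells and 464, 374 and 222 in day 6 CD43+ cells, which overlapped. On day 9 they were 248, 152 and 230 in CD43- cells and 1991, 2064 and 3108 in CD43+ cells, and the log2 fold change was 3.50 (adjusted p = 4.59e-09, called). On days 12 and 16 the log2 fold changes were 0.71 (adjusted p = 0.0875) and 1.13 (adjusted p = 0.00857, short of 4-fold).

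CSF1 (ENSG00000184371, chr1:109910242-109930992, plus strand) encodes the growth factor of the macrophage lineage. Its transcript rose before sorting and then stood higher in CD43- cells, with a gap that was wider on day 12 than on day 6 (change in log2 fold change -1.61, adjusted p = 0.00131). It was 114 in undifferentiated cells, 90, 166 and 120 in day 0 EBs, 150, 141 and 124 at day 2 and 406, 444 and 486 at day 4. The day 2 and day 4 samples did not overlap (log2 fold change 1.68, standard error 0.27, adjusted p = 1.85e-05, short of 4-fold).

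On day 6 CSF1 was 354, 478 and 749 in CD43- cells and 208, 232 and 254 in CD43+ cells. On day 9 it was 788, 1046 and 734 against 260, 286 and 252. On day 12 it was 810, 1551 and 1606 against 131, 260 and 202. All CD43- samples lay above all CD43+ samples of the same day, and the 12 CD43+ samples stayed between 131 and 286. On day 16 the values were 919, 1138 and 1121 in CD43- cells and 264, 282 and 164 in CD43+ cells. The log2 fold change was -1.12 on day 6 (adjusted p = 0.00125) and -1.67 on day 9 (adjusted p = 6.44e-06), both short of 4-fold. It was -2.73 on day 12 (adjusted p = 1.36e-09) and -2.19 on day 16 (adjusted p = 7.38e-08), both called. Without replicate 3 of the day 16 CD43+ cells, the day 16 value was -1.95, just under 4-fold.

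IL34 (ENSG00000157368, chr16:70579895-70660682, plus strand) encodes the other ligand of the CSF1 receptor, which also binds PTPRZ1. It was at 76 or more up to day 2 and at 10 or less from day 4 on. Its values were 130 in undifferentiated cells, 132, 104 and 112 in day 0 EBs, 113, 76 and 112 in day 2 cells and 4, 2 and 8 in day 4 cells, and from day 6 on all 24 sorted samples lay between 0 and 10. The fall from day 2 to day 4 was -4.28 ± 0.85 on the log2 scale (value ± standard error, adjusted p = 0.000223). With a pseudocount of 0.1 it was -4.58 and missed the threshold. The CD43 comparisons of IL34 had log2 fold changes of 0.39, 1.11, -0.72 and -0.81 (lowest adjusted p = 0.256), with overlapping fractions on every day. PTPRZ1 stood between 22842 and 37186 in day 0 EBs, between 2501 and 3244 at day 2 and between 276 and 498 at day 4, and in the sorted samples between 0 and 38.

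CSF1R, the receptor gene shared by CSF1 and IL34, lay on the other side of the sort. Its values were 13, 18 and 6 in day 6 CD43- cells and 658, 258 and 333 in day 6 CD43+ cells. On day 12 they were 71, 1379 and 2314 in CD43- cells and 29020, 10439 and 10082 in CD43+ cells. The fractions did not overlap on any day, and CSF1R was called higher in CD43+ cells with log2 fold changes of 4.97, 6.47, 4.57 and 7.08 on days 6, 9, 12 and 16 (highest adjusted p = 5.22e-06). Replicates 2 and 3 of the day 12 CD43- cells also had the higher sums of 5 macrophage markers, 3622 and 3900 against 309 in replicate 1, and the higher sums of 5 pan-blood markers, 733 and 1304 against 271. CSF1 in these samples was 1551 and 1606 against 810, and IL11 was 1835 and 1640 against 654. The part of those cells in the CSF1 and IL11 values was not tested. Without any 1 of the day 12 replicates, both genes were called lower in CD43+ cells.

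ANGPT1 (ENSG00000154188, on chromosome 8) encodes angiopoietin-1, an activating ligand of TIE2. It was the 1 ligand called higher in CD43+ cells, on days 9 and 16. Its values were 44, 32 and 63 in day 0 EBs, 80, 86 and 92 at day 2 and 66, 72 and 58 at day 4. On day 6 they were 204, 236 and 580 in CD43- cells and 641, 350 and 371 in CD43+ cells, and the fractions overlapped. Both day 6 fractions were above day 4, with log2 fold changes of 2.20 for CD43- cells (adjusted p = 0.000155) and 2.73 for CD43+ cells (adjusted p = 7.03e-06). Without replicate 3 of the day 6 CD43- cells the former was 1.74, under 4-fold.

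On day 9 ANGPT1 reached 2848, 3262 and 3138 in CD43+ cells and 374, 304 and 417 in CD43- cells. The fractions were far apart, with a mean in CD43+ cells 8.45 times that of CD43- cells (log2 fold change 3.08, standard error 0.43, adjusted p = 5.36e-07). On day 12 the values were 364, 1032 and 797 in CD43+ cells and 345, 185 and 500 in CD43- cells, and the fractions overlapped (log2 fold change 1.07, adjusted p = 0.0288, short of 4-fold). On day 16 they were 1188, 2177 and 510 against 98, 148 and 129, with no overlap and a log2 fold change of 3.14 (adjusted p = 3.28e-07). Within CD43+ cells, ANGPT1 rose from day 6 to day 9 (log2 fold change 2.81, adjusted p = 1.10e-05) and fell from day 9 to day 12 (-2.20, adjusted p = 9.45e-05). Leaving out replicate 1 of the day 12 CD43+ cells gave -1.76 for the fall, under 4-fold. Within CD43- cells it fell from day 12 to day 16 by less than 4-fold (-1.36, adjusted p = 0.0114). Day 9 CD43+ cells were highest of all populations (3083 ± 212), with no overlap with the next, day 16 CD43+ cells (1292 ± 838).

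Sums of megakaryocyte, erythroid and macrophage markers are given beside ANGPT1, since these also changed between the CD43+ populations. The 5 megakaryocyte markers summed to between 6735 and 9928 in day 6 CD43+ cells, 24595 and 28639 on day 9, 8734 and 33604 on day 12 and 21901 and 78190 on day 16. Replicate by replicate, the sums of the day 12 CD43+ cells were 8734, 33604 and 21821, where ANGPT1 was 364, 1032 and 797, and those of the day 16 CD43+ cells were 52238, 78190 and 21901, where ANGPT1 was 1188, 2177 and 510. On both days, and on day 6, the replicates had the same order by this sum as by ANGPT1. On day 9 they had not, with sums of 24595, 27616 and 28639 where ANGPT1 was 2848, 3262 and 3138. The 5 erythroid markers summed to between 105826 and 114805 on day 6, 116564 and 197296 on day 9, 5286 and 13585 on day 12 and 4602 and 10085 on day 16. Replicate by replicate, the erythroid sums were 5286, 13585 and 9442 on day 12 and 8849, 10085 and 4602 on day 16. On these 2 days they too had the order of ANGPT1, and on days 6 and 9 they had another order. The 5 macrophage markers summed to between 588 and 720 on day 6 and 571 and 894 on day 9. Replicate by replicate, the macrophage sums were 51401, 17268 and 12398 on day 12 and 36688, 33125 and 42759 on day 16. On day 16 their order was the reverse of that of ANGPT1. On day 12 replicate 1 had the highest macrophage sum and the lowest ANGPT1. In the day 16 CD43- cells, where ANGPT1 was between 98 and 148, the megakaryocyte sum was between 4114 and 12419 and all 5 of its markers were at 100 or more. The part of these cells in the ANGPT1 values was not tested. TEK, the gene of TIE2, lay opposite to ANGPT1. It was 6912, 3716 and 4504 in day 9 CD43- cells and 508, 576 and 426 in day 9 CD43+ cells. The fractions did not overlap on any day, and its log2 fold changes were -1.65 on day 6 (adjusted p = 0.000336, short of 4-fold), then -3.28, -5.60 and -3.53 on days 9, 12 and 16, all called (highest adjusted p = 7.52e-09).

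FLT3LG (ENSG00000090554, chr19:49474207-49486231, plus strand) encodes the ligand of FLT3, a receptor of lymphoid and myeloid progenitors and dendritic cells. It was low throughout and rose late in CD43+ cells. All samples up to day 9 lay at or below 27. On day 12 it was 68, 54 and 48 in CD43+ cells and 18, 46 and 14 in CD43- cells, and on day 16 it was 46, 64 and 64 against 19, 16 and 14. The fractions did not overlap on either day. The log2 fold changes were 0.05 and 0.32 on days 6 and 9 (adjusted p = 0.943 and 0.538), and 1.27 and 1.76 on days 12 and 16 (adjusted p = 0.0144 and 0.00111), short of 4-fold. From day 9 to day 12 it rose in CD43+ cells by less than 4-fold (1.71, adjusted p = 0.00199). AC010619.1 and AC010619.2 overlap FLT3LG on the same strand, and their part in its values was not tested. FLT3 itself was at 4 or below in every sorted sample of days 6, 9 and 12. On day 16 it was 25, 30 and 35 in CD43+ cells and 6, 10 and 6 in CD43- cells (log2 fold change 1.92, adjusted p = 0.00243, short of 4-fold).

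THPO (ENSG00000090534, chr3:184371935-184378144, minus strand) encodes thrombopoietin, the growth factor of megakaryocytes and stem cells. It was highest at day 4 and at most 16 in the sorted samples of days 12 and 16. Its values were 22, 13 and 13 at day 2 and 104, 99 and 93 at day 4, apart by 2.59 ± 0.54 on the log2 scale (adjusted p = 0.000418). On day 6 it was 46, 36 and 50 in CD43+ cells and 14, 15 and 28 in CD43- cells. The day 6 fractions did not overlap, but the log2 fold change of 1.22 missed the threshold (adjusted p = 0.0623). Against day 4, day 6 CD43- cells were lower by a log2 fold change of -2.38 (adjusted p = 0.000825), which was -1.94 and under 4-fold with a pseudocount of 10.

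By day 16 the THPO difference had the other sign. In CD43+ cells it fell from day 6 to day 9 by a log2 fold change of -1.82 (adjusted p = 0.0113, short of 4-fold, and -2.12 and called without replicate 2 of the day 9 CD43+ cells) and from day 9 to day 12 by -2.46 (adjusted p = 0.000388). With a pseudocount of 10 the latter was -0.96 and not called. The day 12 values were 1, 1 and 2 in CD43+ cells and 4, 4 and 11 in CD43- cells, and on day 16 they were 0, 0 and 6 against 16, 6 and 10. The log2 fold changes were -0.45, -1.55 and -2.52 on days 9, 12 and 16 (adjusted p = 0.478, 0.0137 and 0.000203), and the last was called although the lowest CD43- sample equalled the highest CD43+ sample. That value was -0.79 and not called with a pseudocount of 10. THPO shares exon bases with CHRD on the opposite strand, and without stated strand use their reads cannot be told apart. CHRD was 146, 229 and 150 at day 2, 367, 368 and 394 at day 4, 182, 226 and 348 in day 6 CD43- cells and 92, 133 and 197 in day 6 CD43+ cells.

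Among the 9 ligands, those of gp130 (IL6, LIF and IL11) all had their highest mean in the day 12 CD43- cells. IL6 (ENSG00000136244, chr7:22725884-22732002, plus strand) encodes interleukin 6, an inflammatory cytokine. Its transcript was low, at most 19 in every sample outside days 12 and 16. It rose from 0, 0 and 6 in day 0 EBs to 16, 13 and 19 at day 2, by 3.14 ± 0.71 on the log2 scale (adjusted p = 0.00101). A pseudocount of 10 gave 1.15, under 4-fold. In CD43- cells it was 13, 6 and 4 on day 9, 24, 50 and 118 on day 12 and 19, 14 and 44 on day 16. The day 12 samples all lay above the day 9 samples and overlapped with those of day 16. The rise from day 9 to day 12 was 2.76 (adjusted p = 0.00351). It was 2.92 with a pseudocount of 0.1 and 1.89 with a pseudocount of 10, and was called with neither.

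In CD43+ cells IL6 was 0, 0 and 1 on day 9, 1, 0 and 2 on day 12 and 4, 10 and 10 on day 16. The fractions did not overlap on these 3 days. The log2 fold change of CD43+ against CD43- cells was -0.53 on day 6 (adjusted p = 0.566), -2.65 on day 9 (adjusted p = 0.002), -4.88 on day 12 (adjusted p = 9.82e-07) and -1.49 on day 16 (adjusted p = 0.0663). The day 9 value was -0.74 and not called with a pseudocount of 10, and that of day 12 was -2.54 and called. Within CD43+ cells the rise from day 12 to day 16 was 2.22 (adjusted p = 0.0139). It was not called with a pseudocount of 10 (0.69), nor when replicate 2 of the day 12 CD43+ cells (1.79) or replicate 2 of the day 16 CD43+ cells (2.03) was left out. STEAP1B shares exon bases with IL6 on the opposite strand, and was 4, 0 and 8 in the day 12 CD43- cells where IL6 was highest.

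LIF (ENSG00000128342, chr22:30240447-30246851, minus strand) encodes leukaemia inhibitory factor. In the sorted cells it was low on day 6, highest on day 12 in both fractions and lower again on day 16. Its values were 182 in undifferentiated cells, 328, 283 and 187 in day 0 EBs, 76, 92 and 108 at day 2 and 42, 32 and 56 at day 4. Its falls over the first and the next of these steps had log2 fold changes of -1.50 and -1.09 (adjusted p = 0.000871 and 0.0118), short of 4-fold. On day 6 it was 18, 20 and 37 in CD43- cells and 27, 32 and 34 in CD43+ cells. LIF-AS1 and AC004264.1 overlap LIF on the opposite strand, and without stated strand use their reads cannot be told apart.

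On day 9 LIF was 92, 115 and 222 in CD43- cells and 22, 24 and 24 in CD43+ cells. On day 12 it was 1383, 1134 and 2016 against 213, 248 and 374. On day 16 it was 124, 110 and 166 against 108, 81 and 188. The fractions overlapped on days 6 and 16 and were apart on days 9 and 12, and both fractions were highest on day 12. The log2 fold change of CD43+ against CD43- cells was 0.36, -2.46, -2.44 and -0.15 on days 6, 9, 12 and 16 (standard error 0.34, adjusted p = 0.385, 3.97e-07, 3.72e-07 and 0.706), and leaving out replicate 3 of the day 16 CD43- cells or replicate 2 of the day 16 CD43+ cells turned the last to 0.02 or 0.12. Within CD43- cells LIF rose by 2.44 from day 6 to day 9 (adjusted p = 3.43e-05) and by 3.45 from day 9 to day 12 (adjusted p = 2.37e-08), and its log2 fold change from day 12 to day 16 was -3.47 (adjusted p = 7.14e-09). The first of these kept its size and was not called when only the populations compared were fitted. Within CD43+ cells it rose by 3.48 from day 9 to day 12 (adjusted p = 2.33e-09), and its log2 fold change from day 12 to day 16 was -1.19 (adjusted p = 0.00571, short of 4-fold). The next population after day 12 CD43- cells (1511 ± 455) was day 12 CD43+ cells (278 ± 84.7), with no overlap.

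IL11 (ENSG00000095752, chr19:55364389-55370463, minus strand) encodes interleukin 11, a stromal cytokine that acts on megakaryocyte progenitors and mesenchymal cells. On the log2 scale its fractions differed more than those of the other 8 ligands on days 6, 9 and 16. Its values were 58, 48 and 27 in day 0 EBs, 10, 12 and 42 at day 2 and 210, 251 and 180 at day 4. The rise from day 2 to day 4 was 3.54 ± 0.57 on the log2 scale (adjusted p = 1.84e-05). On day 6 it was 271, 334 and 325 in CD43- cells and 6, 16 and 35 in CD43+ cells, and against day 4 the CD43+ cells were lower by a log2 fold change of -3.71 (adjusted p = 5.77e-06).

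On day 9 IL11 was 389, 788 and 436 in CD43- cells and 28, 42 and 34 in CD43+ cells. On day 12 it was 654, 1835 and 1640 against 54, 97 and 112. On day 16 it was 541, 466 and 473 against 13, 1 and 4. No CD43+ sample reached the lowest CD43- sample of any day. The log2 fold changes were -4.25, -3.86, -3.89 and -6.57 on days 6, 9, 12 and 16 (highest adjusted p = 1.56e-06). Within CD43+ cells IL11 fell from day 12 to day 16 with a log2 fold change of -4.03 (adjusted p = 3.65e-06), and day 16 CD43+ cells were the lowest population (6 ± 6.24).

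The receptors of IL6, LIF and IL11 were mostly lower in CD43+ cells. LIFR was 12854, 8977 and 8802 in day 6 CD43- cells and 778, 524 and 744 in day 6 CD43+ cells, and on day 16 it was 12854, 15874 and 12854 against 39, 46 and 30. It was called lower on all 4 days, with log2 fold changes of -3.90, -7.56, -8.14 and -8.47 (highest adjusted p = 7.31e-11). IL11RA was 608, 732 and 428 in day 6 CD43- cells and 470, 532 and 630 in day 6 CD43+ cells, which overlapped. On later days it was lower in CD43+ cells, by -1.71 on day 9 (short of 4-fold) and by -2.12 and -2.25 on days 12 and 16 (highest adjusted p of the 3 days 3.54e-07). IL6ST, the gene of gp130, had log2 fold changes of 0.49, -1.46, -2.45 and -0.65, of which that of day 12 was called (adjusted p = 1.56e-12). IL6R went the other way on days 12 and 16. It was 1091, 3088 and 2638 in day 12 CD43- cells and 8512, 6592 and 6372 in day 12 CD43+ cells. Its log2 fold changes were 1.78 and 1.86 on days 12 and 16 (adjusted p = 5.91e-06 and 3.13e-06), short of 4-fold. Among 9 receptor genes, the CD43+ cells had 1 called higher and 2 lower on day 6, 2 and 2 on day 9, 1 and 5 on day 12, and 1 and 4 on day 16, where 4.69%, 8.65%, 11.8% and 12.2% of all tested genes were called higher on the 4 days and 7.85%, 12.8%, 14.4% and 13.6% lower. A count of 1 in 9 is close to these shares. PTPRZ1, at 38 or less in the sorted samples, was among those called lower on days 6, 12 and 16.

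**Figure D3:**
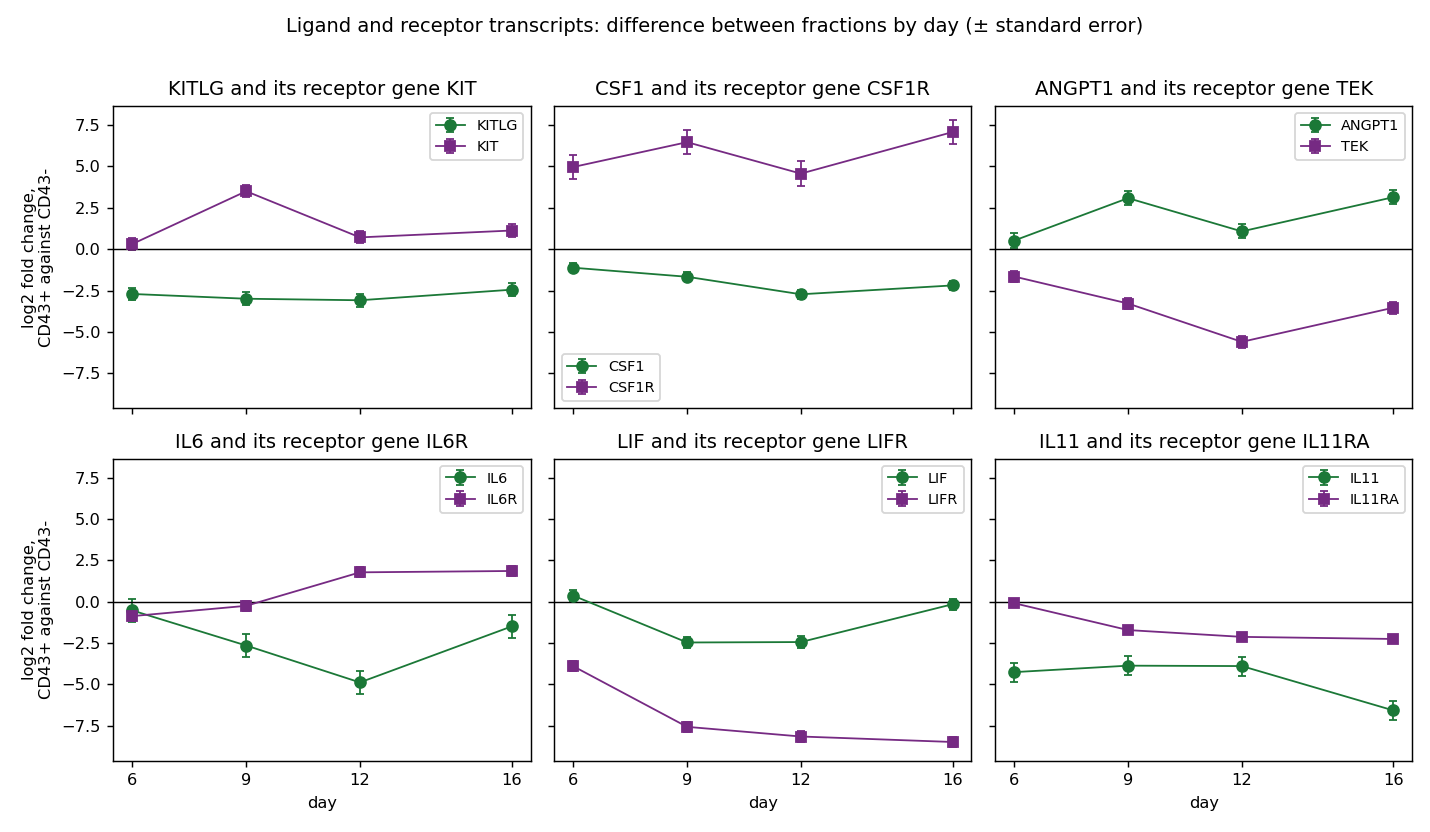
Log2 fold change of CD43+ against CD43- cells by day, with standard errors as bars, for 6 ligands (green circles) and the gene of a receptor of each (purple squares). KITLG and CSF1 lie below 0 and their receptors KIT and CSF1R above 0 on all 4 days, ANGPT1 and TEK lie on opposite sides the other way, IL11 and IL11RA both lie below 0, and IL6 and IL6R lie on opposite sides on days 12 and 16.

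The order of the 11 replicated populations by mean differed from ligand to ligand, and the samples of most neighbours in it overlapped. Sorting by mean places like populations side by side, so overlap of neighbours is a description and not a test of their difference. CSF1 ran from 1322 ± 445 in day 12 CD43- cells to 125 ± 38.3 in day 0 EBs, and 9 of 10 neighbouring pairs overlapped. THPO had its highest mean at day 4 (98.7 ± 5.51), apart from the next, day 6 CD43+ cells (44.0 ± 7.21), which were apart from the third, and the other 8 pairs overlapped. FLT3LG was led by day 16 and day 12 CD43+ cells (58.0 ± 10.4 and 56.7 ± 10.3), which overlapped with each other, and day 12 CD43+ cells did not overlap with the next, day 12 CD43- cells. For IL6 all 10 neighbouring pairs overlapped, from 64.0 ± 48.5 in day 12 CD43- cells to 0.333 ± 0.577 in day 9 CD43+ cells. IL11 had 7 of 10 neighbouring pairs that overlapped, among them the first and second, day 12 and day 9 CD43- cells (1376 ± 633 and 538 ± 218).

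Between successive days, 1 to 3 ligands were called at each step. From day 0 to day 2, 2 ligands were called (KITLG and IL6, both higher), against 7.88% of all tested genes. From day 2 to day 4, 3 were called (THPO and IL11 higher, IL34 lower), against 9.5%. From day 4 to day 6, 2 were called in CD43- cells (ANGPT1 higher, THPO lower), against 7.71%, and 2 in CD43+ cells (ANGPT1 higher, IL11 lower), against 14.5%. Below 4-fold over that step, KITLG was higher in day 6 CD43- cells (log2 fold change 1.25, adjusted p = 0.00924) and lower in day 6 CD43+ cells (-1.46, adjusted p = 0.00233), and CSF1 was lower in day 6 CD43+ cells (-0.94, adjusted p = 0.00515). Within CD43- cells, 1 ligand was called from day 6 to day 9 (LIF), against 1.75%, 2 from day 9 to day 12 (LIF and IL6), against 7.33%, and 1 from day 12 to day 16 (LIF), against 10.4%. Within CD43+ cells, 1 was called from day 6 to day 9 (ANGPT1), against 7.53%, 3 from day 9 to day 12 (LIF higher, ANGPT1 and THPO lower), against 15%, and 2 from day 12 to day 16 (IL6 higher, IL11 lower), against 9.05%. Successive comparisons share the samples of the day between them.

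The difference between the fractions itself changed with time for some ligands. From day 6 to day 12, 3 ligands were called (THPO, IL6 and LIF, each shifting towards CD43- cells), against 18.5% of all genes. From day 12 to day 16, 4 were called (ANGPT1, IL6 and LIF shifting towards CD43+ cells, and IL11 towards CD43- cells), against 5.03%, and leaving out replicate 3 of the day 12 CD43- cells or replicate 2 of the day 16 CD43+ cells brought the count to 2. Another pair of steps was added after the values were seen. From day 6 to day 9, 2 were called (ANGPT1 and LIF), against 7.39%, and from day 9 to day 12, 1 was called (ANGPT1), against 9%. The last was not called when replicate 2 or 3 of the day 9 CD43+ cells, replicate 2 of the day 9 CD43- cells, replicate 1 or 3 of the day 12 CD43- cells or replicate 1 of the day 12 CD43+ cells was left out.

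Of 19 other cytokine genes listed, 15 were in the table, and IL3, IL5, CSF2 and CSF3 were not analysed here. In CD43+ cells 2 of the 15 were called higher and 2 lower on day 6, 4 and 3 on day 9, 6 and 2 on day 12, and 8 and 1 on day 16. Of all tested genes, 4.69% were called higher and 7.85% lower on day 6, 8.65% and 12.8% on day 9, 11.8% and 14.4% on day 12, and 12.2% and 13.6% on day 16. CXCL12, the chemokine that holds progenitors in their niche, was 402 ± 154 on day 6 in CD43- cells and 12 ± 3.46 in CD43+ cells. Its log2 fold change was -4.92, -5.25 and -5.05 on days 6, 9 and 12 (highest adjusted p = 2.56e-09). On day 16 its values overlapped, at 207, 217 and 300 in CD43- cells and 200, 218 and 252 in CD43+ cells. IL1B, an inflammatory cytokine of myeloid cells, was 76.0 ± 44.1 on day 6 and 2197 ± 382 on day 16 in CD43+ cells, against 2.67 ± 2.08 and 19.3 ± 11 in CD43- cells. Its log2 fold change was 4.36, 5.99, 5.24 and 6.92 on the 4 days (highest adjusted p = 0.000265). CXCL8, a neutrophil chemokine, was 4528 ± 3737 in day 16 CD43+ cells and 20 ± 2 in CD43- cells (log2 fold change 7.44, adjusted p = 6.93e-09).

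The genes whose pattern over the 33 replicated samples was most like that of each ligand are given as a description. The samples share days and sort gates, and no test was made. Pearson's r of log2(value + 1) was 0.93 with HAGLR and 0.92 with CTD-2314G24.2 for KITLG, 0.95 with ENOX1 and BNC1 for CSF1, 0.92 with KLKB1 and 0.91 with ASNS for IL34, and 0.91 with NR4A2 and 0.90 with ISY1 for ANGPT1. For FLT3LG it was 0.86 with AKAP10 and SEMA4A, for THPO 0.90 with DYNC1I1 and 0.84 with IL2RB, and for IL6 0.80 with CDH10 and STARD10. It was 0.85 with ALDH1L2 and 0.82 with TBC1D32 for LIF, and 0.92 with CEP112 and 0.91 with NEK5 for IL11. Between the ligands themselves, r was highest for CSF1 and IL11 (0.81) and lowest for FLT3LG and THPO (-0.68).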

How the data were processed

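Reads were mapped by the authors to Ensembl v81 (hg38) using bowtie2 and RSEM and normalized with EDASeq 2.4.1 for GC content within and between samples. Their processing notes also name STAR 2.7 and bcl2fastq. The deposited values are whole-number GC-normalized tag counts and are treated as a score, since sorted they were the same in all 34 samples and are neither raw counts nor CPM. No counting error or depth can be had from them, and the spread between the 3 samples of a population, which the study describes as independent biological replicates, is the error given.

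Values were taken as log2(value + 1), and 1 fit of 33 samples was made with limma (version 3.58.1, R version 4.3.3; lmFit, then eBayes with a variance trend). It tested the 19788 genes that reached 10 in 3 or more samples and left out 467. A call needed a Benjamini-Hochberg adjusted p below 0.05 and a fold change above 4, the limits that the study also set. The undifferentiated sample entered no test. Promoters were searched with Python 3.11.15.

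The members, lists and comparisons were chosen with earlier results of these data known. The genes named were the 9 ligands, 9 receptor genes of theirs (another of the list is not reported here), the 2 called cytokines of largest change in each CD43 comparison whose samples did not overlap, the 2 genes most like each ligand, cell type markers beside a result, and genes overlapping a ligand. Marker lists for erythroid, megakaryocyte, macrophage, pan-blood and mesenchymal cells were read as sums, and those for endothelial, smooth muscle, endoderm and pluripotent cells are given in the closing section. Same-numbered CD43+ and CD43- samples deviated together on day 6 (r from 0.109 to 0.199 across genes) and not in every pair on other days. No correlation was computed between differently numbered samples, so these values cannot decide whether the numbers pair the samples. The main fit took the samples as unpaired. Alternatives were pseudocounts of 0.1 and 10, 2 other filters, median-of-ratios scaling, a replicate block, only the populations compared, robust variances and leaving out each replicate.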

Additional observations from a re-analysis of the deposited data

Results flagged for a closer look

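The results below are ligands whose difference between CD43+ and CD43- cells changed from one day to another, by a test of that change itself in limma (adjusted p below 0.05). The value is the log2 fold change of CD43+ against CD43- cells on the later day minus that on the earlier day, so a negative value is a shift towards CD43- cells. Comparisons that share a day share its samples.

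From day 6 to day 12 the value was -4.35 for IL6 (standard error 1.01, adjusted p = 0.000927), -2.80 for LIF (adjusted p = 2.54e-05), -2.77 for THPO (adjusted p = 0.00439) and -1.61 for CSF1 (adjusted p = 0.00131, short of 4-fold). THPO was above its CD43- samples in all day 6 CD43+ samples and below them in all day 12 CD43+ samples. Its value was -1.42, under 4-fold, with a pseudocount of 10.

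From day 12 to day 16 it was 3.38 for IL6 (adjusted p = 0.0209), 2.28 for LIF (adjusted p = 0.00149), 2.07 for ANGPT1 (adjusted p = 0.0187) and -2.68 for IL11 (adjusted p = 0.023). All 4 lost their call without certain single libraries. IL6 was not called without replicate 3 of the day 12 CD43- cells (2.80), replicate 2 of the day 12 CD43+ cells (2.95) or replicate 2 of the day 16 CD43- cells (3.05), nor with a pseudocount of 0.1 (adjusted p = 0.0649) or 10 (1.63). ANGPT1 was not called without replicate 3 of the day 12 CD43- cells (1.74), replicate 1 of the day 12 CD43+ cells (1.63), replicate 1 of the day 16 CD43- cells (1.91) or replicate 2 of the day 16 CD43+ cells (1.57), nor with only the populations compared (2.07, adjusted p = 0.11). IL11 was not called without replicate 1 of the day 12 CD43- cells (-2.21), replicate 3 of the day 12 CD43+ cells (-2.48) or replicate 2 of the day 16 CD43+ cells (-1.99), nor with a pseudocount of 10 (-1.29, adjusted p = 0.107) or only the populations compared (-2.68, adjusted p = 0.0762). LIF was 1.95, under 4-fold, without replicate 3 of the day 16 CD43+ cells.

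For the steps added after the values were seen, the value from day 6 to day 9 was 2.56 for ANGPT1 (adjusted p = 0.00356) and -2.83 for LIF (adjusted p = 0.000116). From day 9 to day 12 it was -2.01 for ANGPT1 (adjusted p = 0.0137) and -1.06 for CSF1 (adjusted p = 0.0417), and that of ANGPT1 was under 4-fold without any 1 of 6 of the 12 libraries compared.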

How the results depend on the processing

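Depth is unknown, ranks compress differences among abundant genes, and genes at a few tag counts (IL6, THPO, IL34, and IL11 in day 16 CD43+ cells) depend on the pseudocount. The alternatives were counted for 79 log2 fold changes of ligands. These were all those of the 4 CD43 comparisons and, elsewhere, only those with an adjusted p below 0.05. Calls gained among the other values were therefore not counted. The alternatives without a left-out library kept direction and call in 586 cases, lost the call in 17, gained it in 1 and reversed in 2. Leaving out a replicate did so in 517, 22, 1 and 6. The reversed values were all near 0 on a day without a call: IL34 on day 6 (-0.0097 with a pseudocount of 10, and -0.18 to 1.55 when a replicate was left out), FLT3LG on day 6 (-0.10 with median-of-ratios scaling, and -0.25 to 0.30 when a replicate was left out) and LIF on day 16 (-0.49 to 0.12 when a replicate was left out). Median-of-ratios scaling moved the median difference of all genes on day 6 (0.14 to 0) and on day 9 (0.24 to 0.04), and kept the ligand counts of all 4 CD43 comparisons.

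The number of ligands called fell to 1 with a pseudocount of 10 from day 0 to day 2, in CD43- cells over the steps 4 to 6 and 9 to 12 days, and in CD43+ cells from day 12 to day 16. With values of at least 100 required, which 6 of the 9 ligands passed, it was 1 in those 4 comparisons and 1 for the change between fractions from day 6 to day 12. It was 1 in CD43- cells from day 9 to day 12 with a pseudocount of 0.1. With only the populations compared, it was 0 in CD43- cells from day 6 to day 9, 1 in CD43+ cells from day 12 to day 16, where IL6 no longer passed the filter, and 2 for the change from day 12 to day 16, which was also 2 with a pseudocount of 10. Median-of-ratios scaling left 0 for the change from day 9 to day 12. Leaving out 1 replicate gave 1 to 3 from day 4 to day 6 in CD43- cells, 1 to 2 in CD43+ cells over the steps 6 to 9 and 12 to 16 days, 2 to 4 for the change from day 12 to day 16 and 0 to 1 for the change from day 9 to day 12. Losses under higher filters follow from fewer ligands tested, and the cause of the others was not tested.

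The fit with a replicate block gave 2, 5, 5 and 5 ligands called between the fractions on days 6, 9, 12 and 16, as without it, and changed no other count of ligands called.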

Other observations

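Several marker sums outside the blood and mesenchymal lists also differed between populations. The 8 endothelial markers summed to between 27265 and 96777 in day 6 CD43- cells and between 28136 and 36686 in day 6 CD43+ cells, which overlapped. On day 9 they summed to between 40690 and 67330 against 8719 and 12007. The 6 smooth muscle and pericyte markers summed to between 7500 and 13116 in day 12 CD43- cells and 473 and 818 in day 12 CD43+ cells. The 7 endoderm and hepatic markers summed to between 13252 and 22216 in day 16 CD43- cells and 329 and 779 in day 16 CD43+ cells. The 6 pluripotency markers summed to between 65826 and 80818 in day 0 EBs, where IL34 and LIF were high, to between 50721 and 55473 at day 2 and to between 8986 and 10349 at day 4, where IL34 was at 8 or below. The part of these cell types in the ligand values was not tested.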
